A study of Mus musculus with 4 samples.

Results

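The T-box transcription factors that build and maintain the heart were followed in infarcted mouse hearts with and without a transgene that itself carries a T-box gene. The 6 genes were Tbx1, Tbx2, Tbx3, Tbx5, Tbx18 and Tbx20, chosen by symbol in the platform annotation, out of 19505 different gene symbols. Each was read by 1 probe, the summarized value of a transcript cluster on the Clariom S Mouse array. TTg-MI hearts (n = 2) had the genotype Tcf21iCre/Tomato/MGTH2A, and Ctrl-MI hearts (n = 2) had the genotype Tcf21iCre/Tomato. MGTH2A is the name used for a polycistronic cassette of Mef2c, Gata4, Tbx5 and Hand2. Both groups therefore carried a Cre recombinase driven from Tcf21, a gene active in fibroblasts of the heart, and a Tomato reporter. All 4 mice were male, had the left coronary artery ligated at 8 weeks of age, and gave whole-heart RNA 3 months later. The Cre acts in cells that express Tcf21, which are only a part of the whole heart. The design text calls the 2 hearts of a group independent biological replicates.

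T-box proteins bind DNA through a shared domain that recognizes a short element around AGGTGT. In the developing heart some of them activate and others repress the same chamber genes. TBX5 and TBX20 work with NKX2-5 and GATA4 to switch on muscle, calcium-handling and conduction genes. TBX2 and TBX3 repress chamber genes in the atrioventricular canal and the nodes. TBX18 marks the epicardium, the head of the sinus node and mural cells of vessels. TBX1 acts in the pharyngeal progenitors of the outflow tract and in lymphatic vessels.

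The arrays were alike in scale, with medians of 6.55 to 6.62 and lower quartiles of 5.41 to 5.48 log2 units. Across probes, which are not independent replicates, Ctrl-MI replicate 2 correlated at 0.991 and 0.989 with the TTg-MI arrays and at 0.987 with Ctrl-MI replicate 1, so the Ctrl-MI arrays were not each other's closest. General cardiomyocyte markers were bright on all 4 arrays, with a mean log2 level over 7 genes of 18.69 and 18.63 in TTg-MI and 18.42 and 18.70 in Ctrl-MI. Some atrial muscle genes were not: Myl7, an atrial myosin light chain named after its values were seen, read 12.45 and 11.47 in TTg-MI, against 10.44 on Ctrl-MI replicate 1 and 5.61 on Ctrl-MI replicate 2. Sln and Myl4 were likewise far lower on Ctrl-MI replicate 2 than on the other arrays, as given below, though above that array's lower quartile. The atrial markers Nppa, Nr2f2 and Kcnj3 were not lowest on Ctrl-MI replicate 2. None of the 6 T-box genes lay under an array's lower quartile, the level taken here as not shown to be above background.

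Tbx5 was higher and Tbx20 lower in TTg-MI hearts, without overlap of the arrays in either gene. Tbx2 was also above on both TTg-MI arrays, by less. Tbx1, Tbx3 and Tbx18 overlapped between the groups. After limma with Benjamini-Hochberg adjustment over all 22206 probes, 0 of the 6 had an adjusted p under 0.05, where 0.0045% of all probes did. At an unadjusted limma p under 0.05 there were 2 of the 6, 1 higher and 1 lower, where 8.25% of all probes reached it (3.18% higher and 5.07% lower). The arrays did not overlap for 3 of the 6, with 2 higher and 1 lower in TTg-MI, against 38.1% of all probes (19.4% higher and 18.7% lower). The median log2 difference of the 6 was -0.07, and that of all probes was 0.01. All differences are TTg-MI minus Ctrl-MI, and with 2 arrays a group an exact two-sided permutation test cannot go below 0.333. In whole-heart RNA, a change in the number of cells of a type and a change in RNA per cell cannot be told apart.

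**Figure D1:**
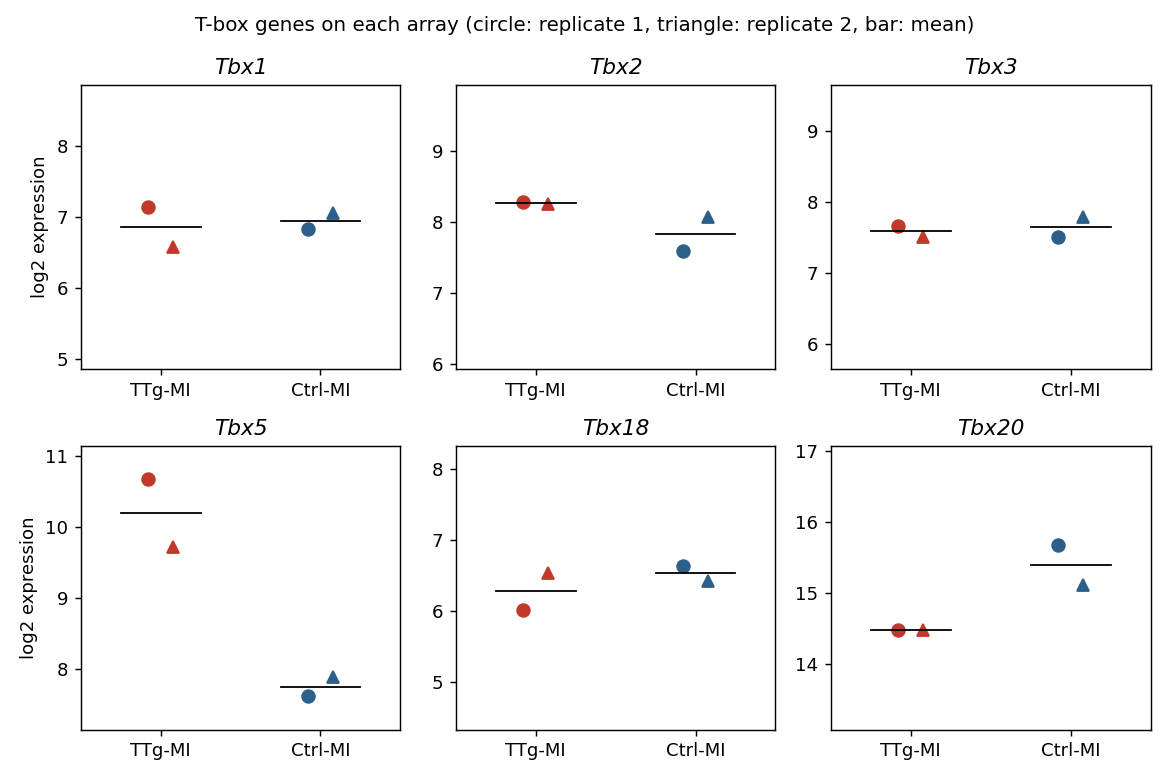
Log2 expression of the 6 T-box genes on each array, TTg-MI left and Ctrl-MI right in every panel, with circles for replicate 1, triangles for replicate 2 and a bar for the group mean. Each panel spans the same number of log2 units around the gene's own values. Both TTg-MI points lie above both Ctrl-MI points for Tbx5 and Tbx2 and below them for Tbx20.

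Tbx5, whose product drives chamber formation and which is mutated in human Holt-Oram syndrome, read 10.68 and 9.72 log2 units in TTg-MI hearts, against 7.62 and 7.88 in Ctrl-MI hearts. The lower TTg-MI array was 1.84 log2 units above the higher Ctrl-MI array. The means were 10.20 ± 0.67 in TTg-MI and 7.75 ± 0.19 in Ctrl-MI (SD, n = 2 each). The log2 difference was 2.45 (SE 0.33, 95% interval 1.62 to 3.27), or 5.46-fold. Only 23 of the 22206 probes differed by more in either direction, and 15 had a smaller p, as Tbx5 ranked 16 in the limma fit (adjusted p = 0.530). The adjusted p ran from 0.0516 to 0.857 over the alternative fits. Leaving out TTg-MI replicate 1 gave a Tbx5 difference of 1.97, and leaving out TTg-MI replicate 2 gave 2.92.

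Tbx5 is carried by the transgene, and the probe values do not say whether the native gene, the transgene or both were read. The other 3 factors of the construct give the setting for it. Mef2c, a MADS-box factor of muscle, read 16.01 and 13.97 in TTg-MI, against 12.67 and 13.02 in Ctrl-MI. Its log2 difference was 2.15 (SE 0.64, limma adjusted p = 0.546), and it was 1.13 without TTg-MI replicate 1. Hand2, a basic helix-loop-helix factor, read 9.94 and 8.93 in TTg-MI, against 9.09 and 8.24 in Ctrl-MI, with a difference of 0.78 (SE 0.42). Leaving out an array moved the Hand2 difference between 0.27 (TTg-MI replicate 1 out) and 1.28 (TTg-MI replicate 2 out), and it had an unadjusted limma p under 0.05 in the fit giving 1.28 and in that without Ctrl-MI replicate 1, which gave 1.20. Without Ctrl-MI replicate 2 it was 0.35. Gata4, a zinc finger factor given here as the remaining factor of the construct, read 14.07 and 13.38 in TTg-MI, against 13.39 and 13.74 in Ctrl-MI, with a difference of 0.16 (SE 0.27). The sign for Gata4 turned with single arrays, from -0.19 with TTg-MI replicate 1 left out to 0.50 with TTg-MI replicate 2 left out, and it was -0.02 without Ctrl-MI replicate 1. The groups were separate for Tbx5 and Mef2c and overlapped for Hand2 and Gata4.

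Within the TTg-MI pair, all 4 factor genes were higher on replicate 1 than on replicate 2. The gap was 0.95 for Tbx5, 2.04 for Mef2c, 1.01 for Hand2 and 0.69 for Gata4 on the log2 scale. Of all probes, 50% were higher on replicate 1, and 1.99% were higher by at least the Gata4 gap. That cut is the smallest gap of these same 4 genes, so the share does not measure how rare they are. The direction was not particular to them. On TTg-MI replicates 1 and 2 the mean was 11.78 and 10.58 over 7 fibroblast markers and 12.43 and 11.74 over 10 atrial markers. Over the 10 other T-box genes it was 6.04 and 6.13. In the Ctrl-MI pair, replicate 1 was below replicate 2 for Tbx5, Mef2c and Gata4 and above it for Hand2. These 4 genes were read on the same arrays, so their gaps are a description of 2 hearts and were not tested.

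**Figure D2:**
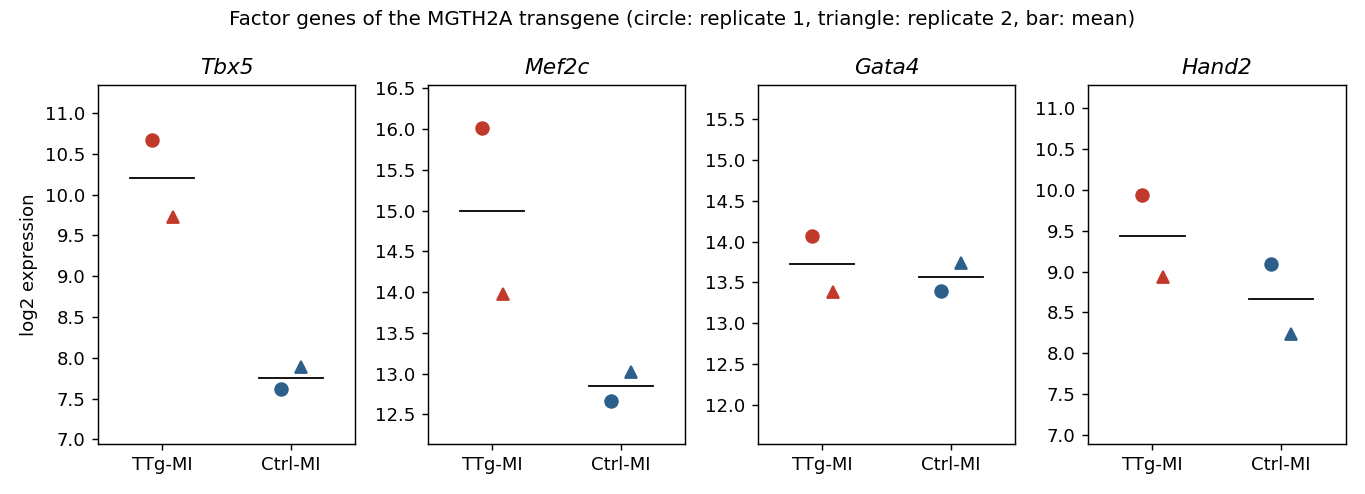
Log2 expression of Tbx5 and of the other factor genes of MGTH2A on each array, TTg-MI left and Ctrl-MI right, with circles for replicate 1, triangles for replicate 2 and a bar for the mean. The circle lies above the triangle in TTg-MI in all 4 panels, by 0.69 to 2.04 log2 units.

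The array profile most like that of Tbx5 was that of Mef2c. Likeness was the Euclidean distance over the 4 arrays after centring each gene on its mean, compared over 1 probe per symbol. Mef2c lay at 0.83 log2 units, followed by Gm6710 at 0.96 and Angpt1, the ligand angiopoietin 1, at 0.98. No symbol lay within 0.5 log2 units of Tbx5. Gm6710 read 15.34 and 15.42 in TTg-MI, against 13.34 and 13.76 in Ctrl-MI. Angpt1 read 11.60 and 10.81 in TTg-MI, against 8.41 and 9.93 in Ctrl-MI. As these genes were picked for their profile over 4 arrays, no test is given.

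Tbx20, which maintains the gene programme of adult heart muscle, was the lowest of the 6 by difference. It read 14.47 and 14.48 log2 units in TTg-MI hearts, against 15.67 and 15.11 in Ctrl-MI hearts. The TTg-MI arrays were almost identical and lay 0.63 log2 units or more below the Ctrl-MI arrays. The means were 14.48 ± 0.003 in TTg-MI and 15.39 ± 0.40 in Ctrl-MI (SD, n = 2 each). The log2 difference was -0.91 (SE 0.22, 95% interval -1.47 to -0.36), which is 1.88-fold lower. Limma gave an adjusted p of 0.546, and the alternative fits gave 0.0560 to 1. Leaving out Ctrl-MI replicate 2 gave a Tbx20 difference of -1.20, and leaving out Ctrl-MI replicate 1 gave -0.63. In an ordinary linear model, without the variance that limma shares across probes, Tbx20 no longer had an unadjusted p under 0.05, while Tbx5 did.

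The Tbx20 profile was a common one. Synpo, which encodes the actin-associated protein synaptopodin, lay at 0.04 log2 units, Anxa3 (annexin A3) at 0.08 and Zyx (zyxin, of focal adhesions) at 0.08, and 631 symbols lay within 0.5 log2 units. Synpo read 9.71 and 9.66 in TTg-MI, against 10.86 and 10.28 in Ctrl-MI.

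Tbx2 and Tbx3 encode repressors of chamber genes, and the difference between their changes was not tested. Tbx2 read 8.28 and 8.25 log2 units in TTg-MI, against 7.59 and 8.08 in Ctrl-MI, a difference of 0.43 (SE 0.21, 95% interval -0.08 to 0.95, limma adjusted p = 0.651). The nearest arrays of the groups were 0.18 log2 units apart. Without Ctrl-MI replicate 2 the Tbx2 difference was 0.68 and had an unadjusted limma p under 0.05, and with Ctrl-MI replicate 1 left out it was 0.19. Tbx3, best known from the conduction system, read 7.66 and 7.50 in TTg-MI, against 7.51 and 7.79 in Ctrl-MI. Its difference was -0.07 (SE 0.17, 95% interval -0.50 to 0.37), smaller than the gap between the Ctrl-MI arrays.

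Tbx18 read 6.02 and 6.54 log2 units in TTg-MI, against 6.65 and 6.42 in Ctrl-MI, with a difference of -0.25 (SE 0.22, 95% interval -0.81 to 0.30). Tbx1 read 7.14 and 6.59 in TTg-MI, against 6.83 and 7.05 in Ctrl-MI, with a difference of -0.08 (SE 0.23, 95% interval -0.65 to 0.50). In both genes the 2 TTg-MI hearts lay farther apart than the 2 group means. The sign of the difference turned on single arrays for Tbx1, Tbx3 and Tbx18, as given with the other alternatives at the end.

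**Figure D3:**
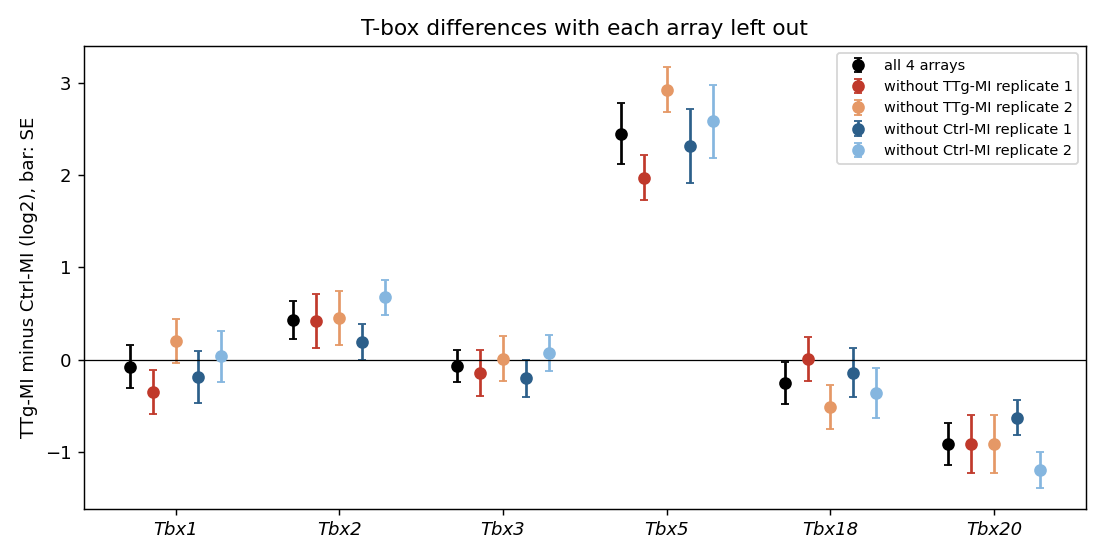
TTg-MI minus Ctrl-MI log2 difference of each of the 6 T-box genes with all 4 arrays (black) and with each array left out in turn, with limma standard errors as bars. Tbx5 stays between 1.97 and 2.92 and Tbx20 between -1.20 and -0.63, while Tbx1, Tbx3 and Tbx18 lie on both sides of 0.

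Among the rest of the family, 10 of 11 genes listed were measured, and 0 reached an unadjusted limma p under 0.05 or an adjusted one. Their differences ran from -0.43 to 0.31 with a median of 0.19. Tbx15, a factor of mesenchyme and skeletal muscle, read 5.33 and 5.19 in TTg-MI, against 5.89 and 5.49 in Ctrl-MI (difference -0.43, SE 0.19). Tbx6, of the paraxial mesoderm, differed by -0.35 (SE 0.15), but 3 of its 4 arrays lay under their lower quartiles. Tbx10 differed by 0.31 (SE 0.16), Tbx19, the pituitary factor TPIT, by 0.30 (SE 0.15), and Tbx4, of the hindlimb and lung, by 0.21 (SE 0.17). Mga, a large protein that joins a T-box to a MAX-binding domain, read 9.91 and 10.64 in TTg-MI, against 9.66 and 10.41 in Ctrl-MI (0.24, SE 0.35). Tbr1 of the cortex (-0.26, SE 0.18), Tbx22 of the palate (0.20, SE 0.15), and Tbx21 (0.19, SE 0.16) and Eomes (0.19, SE 0.15) of lymphocytes made up the rest. Both TTg-MI arrays were above both Ctrl-MI arrays for 6 of the 10 and below them for 3, where 38.1% of all probes were separate either way. Tbx6, Tbx15, Tbx19, Tbx21, Tbx22 and Tbr1 had at least 1 array under its lower quartile. Tbx15 reached an unadjusted p under 0.05 without Ctrl-MI replicate 2.

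**Figure D4:**
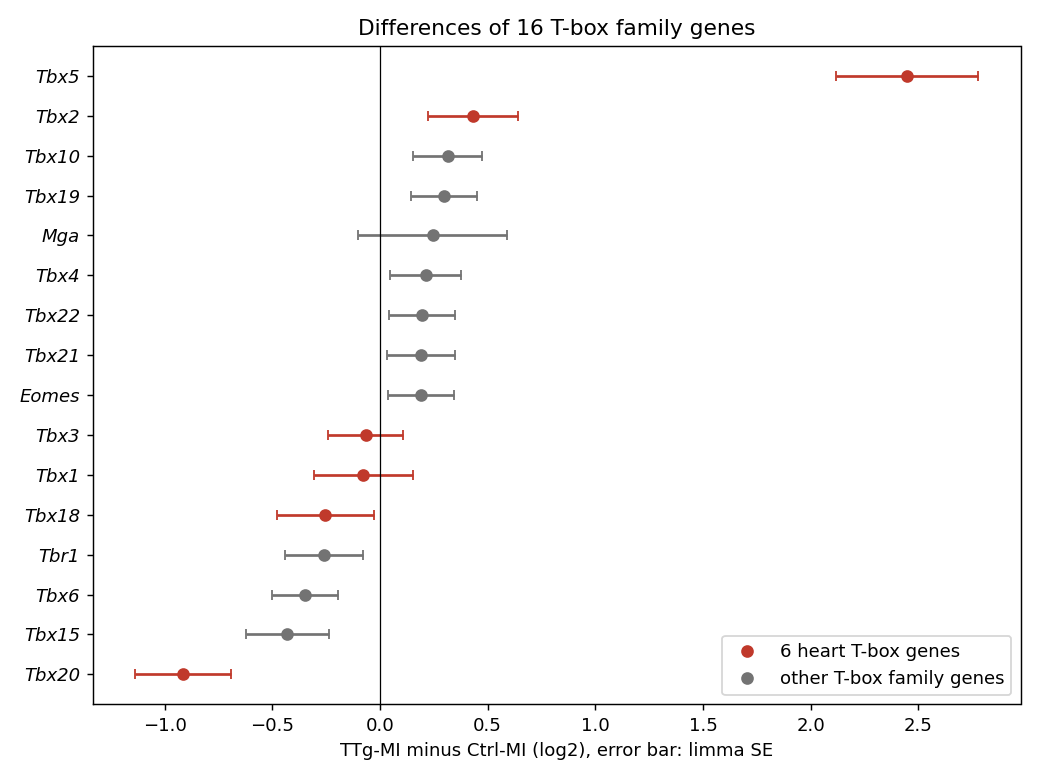
TTg-MI minus Ctrl-MI log2 differences of the 16 measured T-box family genes, ordered by size, with limma standard errors. Tbx5 at 2.45 and Tbx20 at -0.91 lie at the ends, and the other 14 lie between -0.43 and 0.43.

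Some of these genes are neighbours in the reference gene order of assembly GRCm38.p6. Tbx3 and Tbx5 sit side by side on chromosome 5, between Med13l and Rbm19. Med13l, a Mediator kinase module subunit, read 8.68 and 8.61 in TTg-MI, against 9.31 and 9.08 in Ctrl-MI (log2 difference -0.55, SE 0.16, limma adjusted p = 0.546). Rbm19, an RNA-binding protein, read 8.29 and 8.15 in TTg-MI, against 7.93 and 8.05 in Ctrl-MI (0.24, SE 0.16). With Tbx3 at -0.07, none of the 3 genes around Tbx5 had a difference near its 2.45. Tbx2 and Tbx4 sit side by side on chromosome 11 and differed by 0.43 and 0.21. Next to Tbx18 on chromosome 9, Nt5e, the ecto-enzyme CD73, read 7.31 and 7.29 in TTg-MI, against 8.43 and 8.24 in Ctrl-MI (-1.03, SE 0.16, limma adjusted p = 0.530).

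Of the 12 measured partners and cofactors of T-box proteins, 1 was higher and 1 lower at an unadjusted limma p under 0.05, against 3.18% higher and 5.07% lower among all probes, and 0 passed the adjustment. The higher one was Mef2c. The lower one was Wwtr1, which encodes TAZ, a coactivator that binds TBX5. It read 9.87 and 9.58 in TTg-MI, against 10.53 and 10.31 in Ctrl-MI (log2 difference -0.70, SE 0.18, limma adjusted p = 0.546). Nkx2-5, the homeobox partner of TBX5 and TBX20, read 8.84 and 8.93 in TTg-MI, against 8.17 and 8.71 in Ctrl-MI (0.45, SE 0.22). The median of the list was 0.22. Mef2c, Hand2 and Gata4 belong to this list and also to the construct.

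Among 7 measured genes known as TBX5 targets in mouse heart, 1 was higher and 0 lower at an unadjusted limma p under 0.05 (all probes, 3.18% and 5.07%), 0 passed the adjustment, and the median log2 difference was -0.24. Ryr2, the calcium release channel, was the one: it read 16.24 and 16.60 in TTg-MI, against 15.09 and 15.97 in Ctrl-MI (0.89, SE 0.32, limma adjusted p = 0.588). Its difference was 0.45 without Ctrl-MI replicate 1; the unadjusted limma p was then above 0.05. Nppa, the atrial natriuretic peptide gene, read 19.91 and 18.85 in TTg-MI, against 19.92 and 19.90 in Ctrl-MI. As the arrays' highest values were 19.92 to 19.93, a TTg-MI level of Nppa above the Ctrl-MI level could not have been read, and any lower one is a lower limit of the difference. Atp2a2, also among the 7, read 19.93 and 19.93 in TTg-MI, against 19.92 and 19.93 in Ctrl-MI. It lay at the top of the scale on all 4 arrays, where a difference can be hidden. Over the 5 targets other than Nppa and Atp2a2, 1 reached an unadjusted limma p under 0.05, and the median difference was -0.24. Id2, an inhibitor of basic helix-loop-helix factors in the conduction system, read 9.45 and 8.27 in TTg-MI, against 10.58 and 9.38 in Ctrl-MI (-1.12, SE 0.53). The Id2 difference was -1.71 when TTg-MI replicate 1 was left out and -1.72 with Ctrl-MI replicate 2 removed, both at an unadjusted limma p under 0.05, but -0.53 when TTg-MI replicate 2 was left out and -0.51 with Ctrl-MI replicate 1 removed. Dsp, a desmosomal protein, differed by -0.24 (SE 0.18).

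For the genes that TBX2 and TBX3 are known to repress, 0 of 4 measured reached an unadjusted limma p under 0.05, and their median difference was -0.004, or 0.23 over the 3 genes other than Nppa. Smpx, a small muscle protein, differed by 0.52 (SE 0.26), the connexin genes Gja1 by 0.23 (SE 0.32) and Gja5 by -0.24 (SE 0.18). For Nppa, near the top of the scale, the difference rested on TTg-MI replicate 2: it was -1.06, at an unadjusted limma p under 0.05, when TTg-MI replicate 1 was left out and -0.003 with TTg-MI replicate 2 removed. Without Ctrl-MI replicate 2, Smpx differed by 0.81 at an unadjusted p under 0.05. The sign of Gja1 turned to -0.18 when TTg-MI replicate 1 was left out and to -0.02 with Ctrl-MI replicate 1 removed. Of 7 pacemaker and nodal genes, 1 was higher at an unadjusted limma p under 0.05 (3.18% of all probes) and 0 passed the adjustment. This was Hcn4, the pacemaker channel, which read 7.37 and 7.35 in TTg-MI, against 6.75 and 6.90 in Ctrl-MI (0.54, SE 0.15, limma adjusted p = 0.546). The Hcn4 arrays were separate, and its difference was 0.47 to 0.61 as single arrays were left out, with an unadjusted limma p under 0.05 in 1 of these 4 fits, the one without Ctrl-MI replicate 2. Gjc1 (-0.09), Cacna1g (0.06) and Shox2 (0.12) had differences within their standard errors, and Shox2 lay under the lower quartile on all 4 arrays. Of 3 measured genes known downstream of TBX1, 0 reached an unadjusted p under 0.05, with Eya1 at 0.21 (SE 0.22), Fgf8 at 0.12 (SE 0.19) and Fgf10 at -0.11 (SE 0.17).

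The promoters of Tbx20 and of 3 genes that T-box factors act on are shown as examples, picked from the genes with values above. They are the 250 bases before the transcription start, 5′ to 3′ on the gene's strand, from RefSeq on GRCm38.p6, and capitals mark AGGTGT or its reverse complement ACACCT.
Tbx20, GRCm38.p6 chr9:24774304-24774553, minus strand: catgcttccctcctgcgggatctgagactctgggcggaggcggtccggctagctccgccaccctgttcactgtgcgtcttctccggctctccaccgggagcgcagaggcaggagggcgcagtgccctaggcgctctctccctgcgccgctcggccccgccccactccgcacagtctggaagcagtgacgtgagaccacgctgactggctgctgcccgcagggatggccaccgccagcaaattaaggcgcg
Hcn4, GRCm38.p6 chr9:58822699-58822948, plus strand: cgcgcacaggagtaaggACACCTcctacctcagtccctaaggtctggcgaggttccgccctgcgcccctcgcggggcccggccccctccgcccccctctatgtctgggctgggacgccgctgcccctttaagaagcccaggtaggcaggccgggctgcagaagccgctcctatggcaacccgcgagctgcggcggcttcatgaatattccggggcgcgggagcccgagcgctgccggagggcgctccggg
Ryr2, GRCm38.p6 chr13:12106946-12107195, minus strand: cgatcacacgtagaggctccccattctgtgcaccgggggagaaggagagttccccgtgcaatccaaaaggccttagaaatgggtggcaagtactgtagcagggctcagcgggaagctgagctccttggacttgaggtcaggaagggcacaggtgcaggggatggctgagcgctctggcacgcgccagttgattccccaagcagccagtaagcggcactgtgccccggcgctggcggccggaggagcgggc
Nppa, GRCm38.p6 chr4:148000472-148000721, plus strand: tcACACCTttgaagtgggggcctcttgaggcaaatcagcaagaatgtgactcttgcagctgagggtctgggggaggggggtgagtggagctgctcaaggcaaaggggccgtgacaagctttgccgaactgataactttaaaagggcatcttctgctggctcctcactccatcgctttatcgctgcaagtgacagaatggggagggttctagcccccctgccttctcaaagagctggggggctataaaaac
The search for AGGTGT covered both strands of 32851 promoters of this length, and 11.8% held it. Hcn4 and Nppa each held 1 match on the opposite strand, with its first printed base 233 and 248 bases before the start. Tbx20 and Ryr2 held no match in this window. Tbx1, not printed, held 1 match, 76 bases before the start in 1 of its promoters. Of listed genes with a promoter here, a match was held by 1 of 3 heart T-box genes and 0 of 9 others of the family. It was held by 2 of 6 TBX5 targets, 1 of 9 partners, 1 of 4 pacemaker genes and 2 of 8 atrial markers. Over all 27025 genes the share was 13.6%, and these small sets were not tested. A match is a run of letters and was not shown to be bound.

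Tbx5 and Tbx20 were set beside markers of the cells a heart sample can hold. Of 10 atrial muscle markers, 4 were higher and 1 lower at an unadjusted limma p under 0.05, against 3.18% higher and 5.07% lower among all probes, and 1 passed the adjustment. That gene was Bmp10, a growth factor of atrial muscle, which read 12.38 and 11.82 in TTg-MI, against 5.31 and 5.40 in Ctrl-MI. The median difference of the 10 was 1.24, but it was -0.27 without Ctrl-MI replicate 2. Of the 10, 6 had a higher and 4 a lower mean in TTg-MI, the lower being Nppa, Dkk3, Nr2f1 and Nr2f2. Dkk3 read 9.16 and 7.94 in TTg-MI, against 10.78 and 7.73 in Ctrl-MI. Kcnj3 and Kcnj5, the channel genes of the atrial acetylcholine-gated current, differed by 1.64 (SE 0.37) and 0.84 (SE 0.18), and Nr2f1 by -0.45 (SE 0.15). The mean level of the 10 was 12.43 and 11.74 in TTg-MI, against 11.38 and 9.24 in Ctrl-MI. Sln and Myl4, named with Myl7 after their values were seen, read 14.42 and 13.06, and 16.34 and 14.61, in TTg-MI. On Ctrl-MI replicate 1 they read 14.07 and 15.99, and on Ctrl-MI replicate 2 they read 7.90 and 7.70. Tbx5 read 7.62 and 7.88 on these Ctrl-MI arrays. Without Ctrl-MI replicate 2 the differences were 2.58 for Tbx5, -0.33 for Sln, -0.52 for Myl4 and 1.51 for Myl7. In that fit Bmp10 differed by 6.79, Kcnj3 by 2.21 and Kcnj5 by 0.91. Dkk3 then differed by -2.22, Nppa by -0.54, Nr2f1 by -0.51 and Nr2f2 by -0.21. Without Ctrl-MI replicate 1 the Kcnj3 difference was 1.08. The part of atrial muscle in the Tbx5 difference was not tested.

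**Figure D5:**
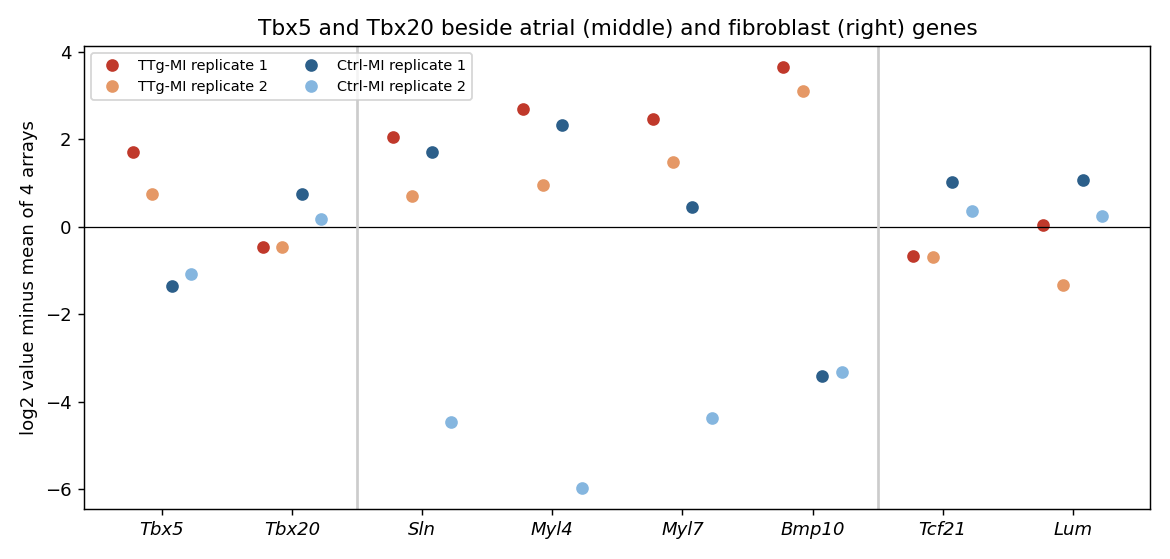
Log2 value on each array minus the mean of the 4 arrays for Tbx5 and Tbx20 (left), 4 atrial genes (middle) and 2 fibroblast genes (right), TTg-MI in red and orange and Ctrl-MI in blue. The 4 atrial genes drawn all had a higher mean in TTg-MI, as did 6 of the 10 atrial markers, while 4 had a lower one. Sln, Myl4 and Myl7 are lowest on Ctrl-MI replicate 2, while Tbx5 and Bmp10 are low on both Ctrl-MI arrays, and Tbx20 and Tcf21 are higher on both.

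All 7 fibroblast markers had a lower mean in TTg-MI, 5 of them at an unadjusted limma p under 0.05 (5.07% of all probes were lower at that level) and 0 after adjustment, with a median difference of -1.30. Tcf21 read 7.26 and 7.26 in TTg-MI, against 8.96 and 8.30 in Ctrl-MI (-1.37, SE 0.25), and Postn, a matricellular protein, differed by -2.83 (SE 0.99). Lum and Dpt, both matrix proteins, differed by -1.30 (SE 0.50) and -0.96 (SE 0.31). The mean level of the 7 was 11.78 and 10.58 in TTg-MI, against 12.92 and 12.20 in Ctrl-MI. Leaving out TTg-MI replicate 2 gave -1.30 for Postn, -0.62 for Lum and -0.53 for Dpt, and the median of the 7 was -0.62. With Ctrl-MI replicate 1 left out, the median was -0.88 and the Tcf21 difference was -1.04. Leaving out TTg-MI replicate 1 gave -4.37 for Postn, -1.97 for Lum and a median of -1.40. The median was -1.695 once Ctrl-MI replicate 2 had been dropped. The part of fibroblast content in the Tbx20 difference was not tested. For cardiomyocyte genes 0 of 7, and for ventricular genes 0 of 5, reached an unadjusted p under 0.05, with medians of 0.10 and 0.21. Tnnt2, Actc1 and Myh6 lay within 1 log2 unit of the highest value on all 4 arrays, where a difference can be compressed. The other 4 cardiomyocyte genes had a median of 0.05 with 0 at an unadjusted p under 0.05. Of these 4, Actn2 read 18.92 and 18.92 in TTg-MI, against 18.91 and 18.91 in Ctrl-MI. It lay only just outside that limit, so its difference can be compressed too. Myl2 came within 1 log2 unit of the highest value on at least 1 array, and the other 4 ventricular genes had a median of 0.33. Leaving out genes near the top of the scale was chosen after the values were seen.

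Markers of the cells that hold Tbx18 were mixed. Of 9 epicardial markers 0 reached an unadjusted limma p under 0.05 (median -0.19), with Upk3b at 8.46 and 7.90 in TTg-MI, against 9.68 and 8.03 in Ctrl-MI. Msln and Upk1b, also of the mesothelial surface, differed by -0.45 (SE 0.27) and -0.51 (SE 0.36), and the keratin gene Krt19 by -0.19 (SE 0.16). Without Ctrl-MI replicate 1, Msln, Upk1b and Upk3b differed by -0.11, -0.002 and 0.15. With Ctrl-MI replicate 2 removed instead they differed by -0.80, -1.02 and -1.505. Ctrl-MI replicate 1 held the highest value of Upk3b, Msln and Upk1b, as it did of Tbx18. Of 8 mural markers, 4 had a higher and 4 a lower mean (median -0.08), and 1 was lower at an unadjusted limma p under 0.05, the adhesion molecule Mcam at -0.68 (SE 0.27), or -0.36 with Ctrl-MI replicate 1 left out. Abcc9 and Kcnj8, partners in a potassium channel of pericytes and muscle, differed by 1.19 (SE 0.50) and 0.31 (SE 0.16), and the receptor Pdgfrb by -0.34 (SE 0.23). The Abcc9 difference was 0.43 without Ctrl-MI replicate 1, and 1.96 when Ctrl-MI replicate 2 was left out. Pdgfrb differed by -0.62 without TTg-MI replicate 1 and by -0.06 with TTg-MI replicate 2 removed instead. The part of these cells in the Tbx18 values was not tested.

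Of 7 lymphatic markers, where Tbx1 is known to act, 1 was higher and 2 lower at an unadjusted limma p under 0.05, against 3.18% higher and 5.07% lower among all probes, and 0 passed the adjustment. The chemokine Ccl21a read 11.49 and 11.48 in TTg-MI, against 12.13 and 12.62 in Ctrl-MI (-0.90, SE 0.21). The receptor Flt4 differed by -0.48 (SE 0.15) and Mmrn1, multimerin 1, by -0.37 (SE 0.17). Prox1, a homeobox gene also expressed in heart muscle, differed by 1.33 (SE 0.49), by 0.56 without Ctrl-MI replicate 1 and by 2.10 with Ctrl-MI replicate 2 removed instead. Tbx1, at -0.08, overlapped between the groups.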

How the data were processed

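Whole-heart RNA of 2 TTg-MI and 2 Ctrl-MI mice was read on Clariom S Mouse arrays, 1 array a heart. The deposited values were taken as log2, since every array ran from about 4 to about 20 and no source used here names the base. Per the submitters' processing notes, the authors used Affymetrix Expression Console 1.4; its summarization, annotation version and genome build are not given in the sources used here. Values were used as deposited, and precision is limited by having 4 arrays.

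A two-sided limma test (version 3.58.1, R 4.3.3, lmFit and eBayes) covered all 22206 probes, with Benjamini-Hochberg adjustment and a threshold of 0.05, on 2 residual and 3.56 prior degrees of freedom. The fit was tested on simulated data. Of the probes, 19572 had 1 symbol, 0 had several and 2634 were unnamed here. A gene was read by its probe with the highest mean. In all, 114 of 122 listed genes matched, and the others were not analysed here.

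The members, lists and tests were chosen with earlier results of these data known. The rule named the 6 genes, the other T-box genes, up to 4 genes of each further list by smallest p, the 3 nearest profiles of a member with a range of at least 1 log2 unit, and neighbouring genes. As alternatives, the fit was repeated with quantile-normalized values, median-centred values, dim probes removed, a trended robust prior, an ordinary linear model, a replicate block, leaving out each array, and the mean of a symbol's probes.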

Additional observations from a re-analysis of the deposited data

How the results depend on the processing

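In 59 of 66 refits of the 6 T-box genes under the alternatives, a gene kept the direction of its difference and its side of an unadjusted p of 0.05. The dim probe filter, the trended robust prior, the ordinary linear model, the replicate block and the probe mean left every difference as it was. Direction could not change in those refits, as each T-box gene had 1 probe. All 5 turns of sign came from leaving out an array. The T-box genes with an adjusted p under 0.05 numbered 0 in every alternative run. Those at an unadjusted p under 0.05 numbered 1 in the ordinary linear model, where Tbx20 missed it, and 2 to 3 as single arrays were left out, Tbx2 joining without Ctrl-MI replicate 2 (14.7% of all probes reached it there). The Tbx1 difference was 0.20 without TTg-MI replicate 2 and 0.03 without Ctrl-MI replicate 2, within a range of -0.35 to 0.20. The Tbx3 difference was 0.0109 and 0.0713 without the same arrays, within -0.205 to 0.0713, and that of Tbx18 was 0.00563 without TTg-MI replicate 1, within -0.512 to 0.00563. The cause was not tested. Over all probes, 1 passed the adjustment, 4 with a trended robust prior, 0 in the ordinary linear model, and 1 to 332 as single arrays were left out (2 with Ctrl-MI replicate 1 removed and 332 with Ctrl-MI replicate 2 removed). With the replicate number as a block, 7 probes passed and Tbx5 had an adjusted p of 0.0685. Same-numbered arrays deviated together with a correlation of 0.163 over probes, and with 2 arrays a group the numbers were not taken to pair the hearts. The block changed no call of a T-box gene. Leaving out single arrays, added after seeing the data for the lists, gave 0 to 1 other T-box genes, 2 to 3 partners and 0 to 3 TBX5 targets at an unadjusted p under 0.05. The share of all probes at that level was 5.79% with TTg-MI replicate 1 removed, 3.88% with TTg-MI replicate 2 removed, 6.34% with Ctrl-MI replicate 1 removed and 14.7% with Ctrl-MI replicate 2 removed.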

Other observations

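Vessel and immune cell genes were measured beside the T-box genes of lymphocytes. Of 8 T and NK cell markers, 0 reached an unadjusted limma p under 0.05, and the median log2 difference was -0.10. Cd3g, a T cell receptor subunit, read 5.31 and 5.19 in TTg-MI, against 5.66 and 5.50 in Ctrl-MI (-0.33, SE 0.16). Tbx21, the T-bet gene of these cells, lay under the lower quartile on 3 of 4 arrays, and the effector gene Ifng on all 4. The 3 measured macrophage markers were lower at an unadjusted limma p under 0.05 (5.07% of all probes) and 0 passed the adjustment, with Mrc1, the mannose receptor, at 9.29 and 8.71 in TTg-MI, against 11.15 and 10.00 in Ctrl-MI. The Mrc1 difference was -1.57 (SE 0.41), and leaving out Ctrl-MI replicate 1 gave -0.997. In that fit Adgre1 and Csf1r differed by -0.56 and -0.38. With TTg-MI replicate 2 left out, Adgre1, Csf1r and Mrc1 differed by -0.94, -0.97 and -1.28. Without Ctrl-MI replicate 2 the same genes differed by -1.62, -1.51 and -2.15. Of 6 blood endothelial and endocardial markers, 1 was higher and 1 lower at an unadjusted limma p under 0.05 (all probes, 3.18% and 5.07%). Tie1, an endothelial receptor, read 10.30 and 9.82 in TTg-MI, against 9.58 and 9.18 in Ctrl-MI (0.69, SE 0.24), and differed by 0.44 with TTg-MI replicate 1 left out. Pecam1, a junction protein of the endothelium, read 11.82 and 11.86 in TTg-MI, against 12.59 and 12.21 in Ctrl-MI (-0.56, SE 0.19), and differed by -0.37 with Ctrl-MI replicate 1 left out.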
